A study of Mus musculus with 2 samples.

Results

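The 5 galectin genes Lgals1, Lgals3, Lgals7, Lgals8 and Lgals9 were taken by symbol from a table of 27998 genes, and all 5 were found in both libraries. They were chosen by their level, share of cells and spread in these 2 libraries, with earlier results on both known, so every value below is a description and none is a test. The data are single-cell RNA counts of E14, a male embryonic stem cell line of mouse labelled as strain C57BL/6 and grown without feeder cells on gelatin in a 2i medium with leukaemia inhibitory factor. One culture was treated for 24 h with the solvent DMSO and the other for 24 h with Idoxuridine, an iodinated thymidine analogue that cells build into new DNA, in a series on noise and differences between cells in circadian period. The treatment label gives 10 µM Idoxuridine and a protocol field gives 10 mM, and the sources used here do not settle which is right. Each treatment had 1 library, so no difference below has a replicate check, and all intervals are 95% intervals for counting error only.

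Galectins are small lectins that bind galactose-ended sugar chains. They are made in the cytosol, leave the cell without a signal peptide, cross-link glycoproteins at the surface and, inside the cell, bind sugars exposed by damaged lysosomes. Galectin-1 and galectin-7, from Lgals1 and Lgals7, carry a single sugar-binding domain and can pair up. Galectin-3, from Lgals3, joins such a domain to a repetitive tail through which it clusters, and galectin-8 and galectin-9, from Lgals8 and Lgals9, carry a pair of different domains on the same chain. Galectin-7 is best known from stratified epithelium and was described as a p53-induced gene, and galectin-3 is abundant in macrophages and many epithelia.

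The DMSO library held 40818344 unique molecular identifiers (UMIs, 1 per captured transcript end) in 811 cells, with a median of 44502 per cell. The Idoxuridine library held 30454626 in 742 cells, with a median of 37425. The libraries shared 2 cell barcodes. The stem cell marker Pou5f1, which encodes Oct4, had a UMI in every cell of both libraries at a fixed depth of 23500 UMIs per cell. Of the macrophage genes Ptprc, Adgre1 and C1qb had no UMI in either library, and Csf1r had 1 UMI in DMSO and 3 in Idoxuridine. Others of that list were present, with Spi1 at 190 and 347 UMIs and Cd68 at 280 and 302. Of the keratinocyte genes Krt5 had 0 and 1 UMIs and Krt14 had 0 and 15. Krtdap had 10 and 190, S100a14 had 11 and 266, Dsp had 93 and 357, and Sfn had 4027 and 4156.

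Of the 5 galectin genes 3 were higher in the Idoxuridine library and the other two lay close to their DMSO level. In DMSO Lgals7 had 40 UMIs, or 0.980 per 1000000 UMIs of the library (CPM; interval 0.700 to 1.33), and in Idoxuridine it had 1322, or 43.4 CPM (41.1 to 45.8). That is 44.3-fold higher (32.4 to 62.3), from the lowest of the 5 levels to the second of them. Lgals1, the most abundant galectin in Idoxuridine, had 122 CPM there (118 to 126) and 26.3 CPM with DMSO (24.7 to 27.9), which is 4.65-fold higher (4.35 to 4.99). With DMSO Lgals9 had 3.09 CPM (2.57 to 3.68), and with Idoxuridine it had 18.2 CPM (16.7 to 19.8), which is 5.90-fold higher (4.86 to 7.22). The intervals of these 3 genes did not overlap between the libraries.

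The most abundant galectin of the DMSO library was Lgals3 at 38.5 CPM (36.7 to 40.5), and with Idoxuridine it had 31.6 CPM (29.7 to 33.7). Its log2 ratio of Idoxuridine over DMSO was -0.29 (-0.40 to -0.17), short of the 0.5 log2 used here as the size of a call. Lgals8 was at 5.71 CPM in both libraries, with intervals of 5.00 to 6.49 in DMSO and 4.90 to 6.63 in Idoxuridine, and its log2 ratio of 0.00 had an interval of -0.29 to 0.29. With edgeR's TMM scaling, which lowers every ratio by 0.21 log2, Lgals3 was at -0.50 and Lgals8 at -0.21. With median-of-ratios scaling Lgals3 reached -0.54 and was past the call size.

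The order of levels therefore differed between the libraries. In DMSO it ran Lgals3, Lgals1, Lgals8, Lgals9, Lgals7, and in Idoxuridine Lgals1, Lgals7, Lgals3, Lgals9, Lgals8. No 2 neighbours in either order had overlapping intervals. UMIs are counted at the 3′ end, so these levels need no scaling by transcript length. By the call rule, at least 0.5 log2 with separate intervals, 3 of 5 galectins were higher and 0 were lower. Over all 10380 genes with at least 200 UMIs, 18.8% were called higher and 4.2% lower. The galectins were chosen with this contrast in view, so their count is not read against that background.

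**Figure D1:**
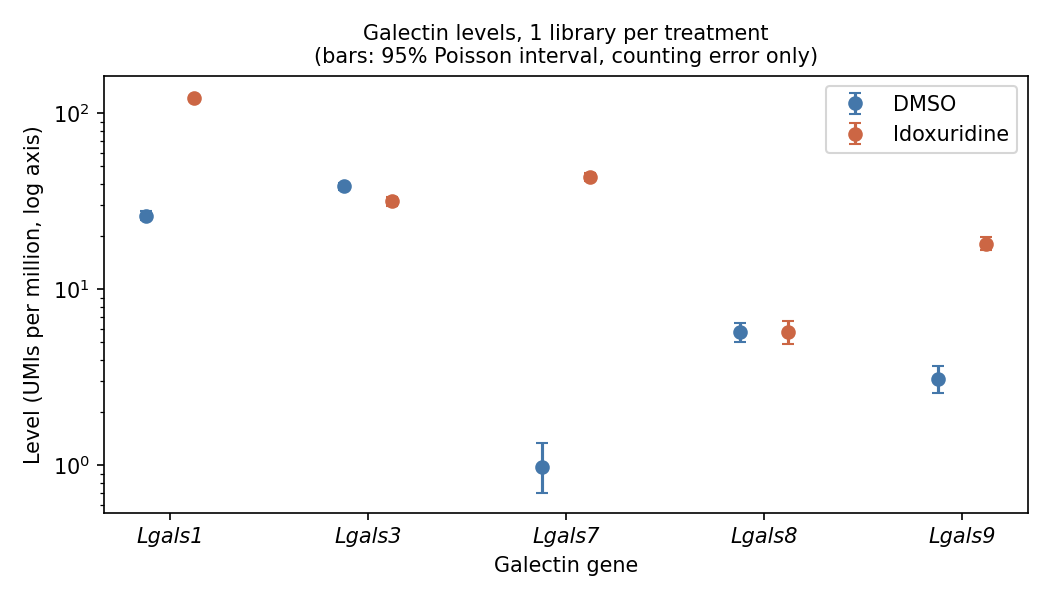
Level of each galectin gene in CPM (log axis) in the DMSO and Idoxuridine libraries, with 95% Poisson intervals. Lgals7 moved from 0.980 to 43.4 CPM, Lgals1 and Lgals9 were higher in Idoxuridine, and the Lgals8 points lie at the same height.

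All 5 genes are protein-coding and lie on 5 chromosomes of GRCm38. In the GENCODE annotation Lgals1 spans chr15:78926725-78930465 and Lgals3 spans chr14:47367751-47386160, both on the plus strand. Lgals7 spans chr7:28863853-28866284 on the plus strand. Lgals8 spans chr13:12439415-12464944 and Lgals9 spans chr11:78962974-78984946, both on the minus strand. Lgals7 overlaps the opposite-strand gene Gm10648, which the count table does not list, and Lgals8 overlaps Heatr1 on the opposite strand. The sources used here do not state that counting used strand, so the counts of Lgals7 and Lgals8 are less certain than the others.

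RefSeq gives a promoter window on GRCm38.p6 for 4 of the 5 galectins. The stretches before those RefSeq starts are shown because Lgals7 and Lgals9 differed widely between the libraries while Lgals3 and Lgals8 did not. Each runs 5′ to 3′ on the gene's strand from 250 bases before the RefSeq start and stops where an exon of a GENCODE transcript begins, with the letters CG, where mouse DNA can be methylated, in capitals.
Lgals7, chr7:28864136-28864228, plus strand: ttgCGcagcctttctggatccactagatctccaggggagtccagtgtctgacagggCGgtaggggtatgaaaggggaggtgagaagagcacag
Lgals9, chr11:78984947-78985174, minus strand: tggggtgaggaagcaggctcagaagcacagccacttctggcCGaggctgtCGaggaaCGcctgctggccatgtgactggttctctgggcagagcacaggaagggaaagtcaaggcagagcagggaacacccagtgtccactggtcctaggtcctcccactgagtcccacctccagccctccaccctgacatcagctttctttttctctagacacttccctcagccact
Lgals3, chr14:47373610-47373812, plus strand: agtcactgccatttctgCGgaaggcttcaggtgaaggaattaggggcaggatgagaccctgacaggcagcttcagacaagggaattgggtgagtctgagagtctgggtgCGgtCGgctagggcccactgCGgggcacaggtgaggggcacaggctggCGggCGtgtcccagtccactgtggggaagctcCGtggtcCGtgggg
Lgals8, chr13:12461739-12461988, minus strand: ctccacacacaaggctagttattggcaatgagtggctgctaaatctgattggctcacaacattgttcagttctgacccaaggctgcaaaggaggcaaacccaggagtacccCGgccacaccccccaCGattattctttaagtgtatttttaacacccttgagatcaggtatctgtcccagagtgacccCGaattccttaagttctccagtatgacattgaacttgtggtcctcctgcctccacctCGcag

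All 4 stretches end at the first base of 1 GENCODE transcript and hold no annotated exon. The Lgals9 stretch lies before the gene, whereas those of Lgals3, Lgals7 and Lgals8 lie within the gene spans given above, in an intron of 1 longer transcript each. Over the full 250 bases before the RefSeq start, exon bases included, the letters CG occurred 13 times for Lgals3, 5 times for Lgals7, 4 times for Lgals8 and 3 times for Lgals9. Of 32851 such windows, 92.1% hold the letters CG at least once, and the median is 6. At least as many as Lgals3 were found in 31.5% of windows, as Lgals7 in 55.6%, as Lgals8 in 62.2% and as Lgals9 in 71.0%. Lgals7 and Lgals9, the called genes with a window, thus lie below the median of all promoters, and so does Lgals8. CG reads the same on both strands, and DNA methylation was not measured.

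At the fixed depth, which 764 DMSO and 648 Idoxuridine cells reached, the shares of cells with a galectin UMI went with the levels. Lgals7 had a UMI in 15 DMSO cells (1.96%, exact binomial interval 1.10% to 3.22%) and in 305 Idoxuridine cells (47.1%, 43.2% to 51.0%). Without thinning the shares were 4.69% and 56.3%. No DMSO cell had more than 1 Lgals7 UMI at this depth, while 35 Idoxuridine cells (5.40%) had 5 or more and the highest had 12. Lgals7 was thus detected in many Idoxuridine cells at low counts and in few at high ones, and 52.9% had none.

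Lgals1 had a UMI in 42.3% of DMSO cells (38.7% to 45.9%) and 78.5% of Idoxuridine cells (75.2% to 81.7%), or 60.2% and 84.0% without thinning. The median cell had 0 Lgals1 UMIs with DMSO and 2 with Idoxuridine. Cells with 5 or more Lgals1 UMIs numbered 3 in DMSO (0.393%) and 143 in Idoxuridine (22.1%), where the highest had 25. At this depth it was the only one of the 5 galectins seen in most Idoxuridine cells.

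Lgals9 had a UMI in 5.10% of DMSO cells (3.65% to 6.91%) and 27.9% of Idoxuridine cells (24.5% to 31.6%), or 12.8% and 36.7% without thinning. The highest Lgals9 count was 2 UMIs in a DMSO cell and 12 in an Idoxuridine cell. Lgals8 had a UMI in 14.1% of DMSO cells (11.7% to 16.8%) and 11.4% of Idoxuridine cells (9.07% to 14.1%), or 24.7% and 20.5% without thinning. The Lgals8 intervals overlap and its levels are equal, so no order is read from these shares.

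Lgals3 went the other way from Lgals1, Lgals7 and Lgals9. It had a UMI in 52.4% of DMSO cells (48.7% to 55.9%) and 38.1% of Idoxuridine cells (34.4% to 42.0%), or 73.1% and 52.97% without thinning. Thinned cells held 0.879 Lgals3 UMIs on average with DMSO and 0.768 with Idoxuridine. If counting alone spread those means over cells, 58.5% and 53.6% of cells would have a UMI, so the Idoxuridine library was further below that share. At the top end, 6 DMSO cells (0.785%, 0.289% to 1.70%) and 12 Idoxuridine cells (1.85%, 0.960% to 3.21%) had 5 or more UMIs. Those intervals overlap, and the highest counts were 6 and 21.

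No second cell type known to lack galectins was in these libraries, so the share that RNA free in the droplets could give was not measured. Grifin, the lens relative of the galectins, was seen in 0.131% of cells with DMSO and 0.154% with Idoxuridine. Lgals12, known from fat tissue, was seen in 0.262% and 1.23%. These genes had too few UMIs in either library for their shares to give a scale for free RNA of the 5 galectins.

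**Figure D2:**
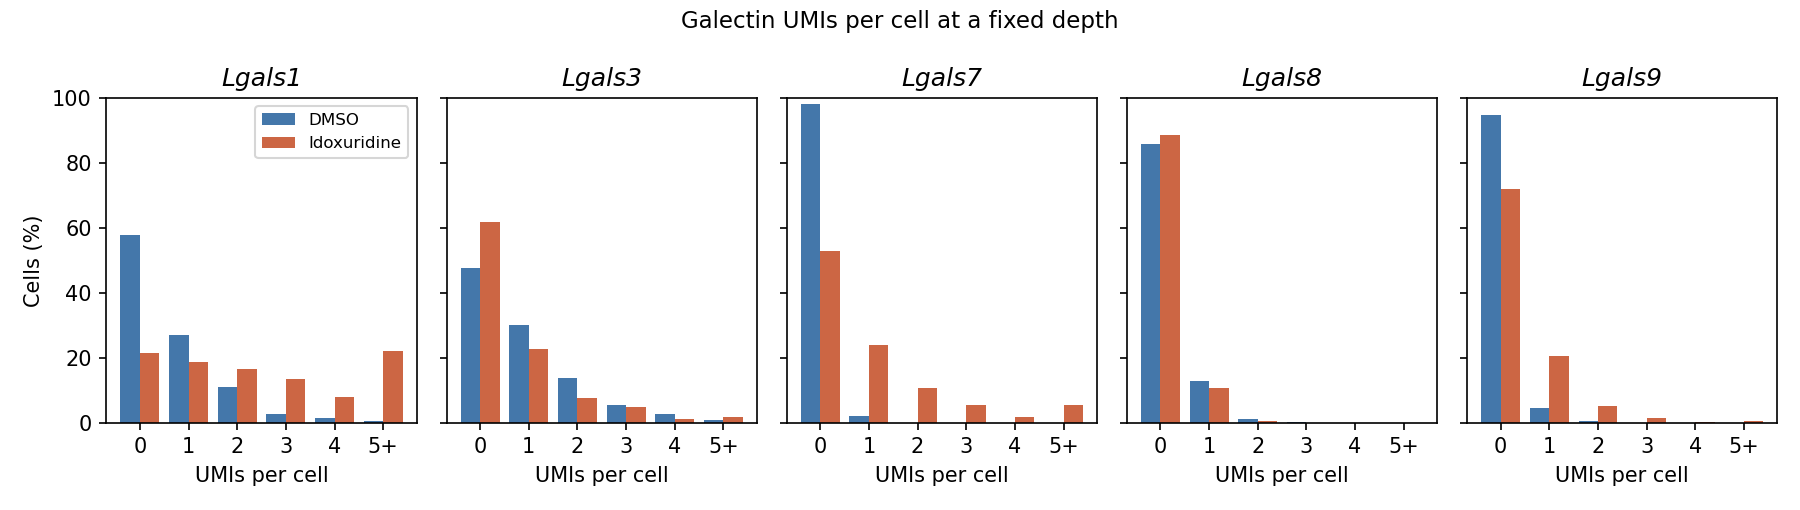
Share of cells (%) with 0, 1, 2, 3, 4 or at least 5 UMIs of each galectin after thinning to 23500 UMIs, in 764 DMSO and 648 Idoxuridine cells. Lgals1, Lgals7 and Lgals9 shift to higher counts in Idoxuridine, while Lgals3 has a larger share of cells at 0. At 5 or more Lgals3 UMIs the intervals of the shares overlap.

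Differences between cells were described by the Fano factor, which divides the variance of a gene's UMIs across cells by its mean and would be 1 from counting alone. Lgals3 had a Fano factor of 1.32 in DMSO and 3.97 in Idoxuridine, a log2 ratio of 1.59, and ranked 7 of the 7316 genes that averaged 0.25 UMIs or more per cell in each library. Lgals1 had 1.38 and 3.31, a log2 ratio of 1.26 and rank 20, with means of 0.629 and 2.85 UMIs. These are the only 2 galectins in that set, and both were past 0.5 log2, as were 2.54% of the set, while 0.137% were past -0.5 log2. The galectins were chosen with this measure known, and nothing is read from that count.

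The other galectins were too sparse in DMSO for that set. Lgals7 had a Fano factor of 1.02 at a mean of 0.0199 UMIs in DMSO and 2.71 at 1.03 UMIs in Idoxuridine. Lgals9 had 1.06 at 0.0707 UMIs and 2.12 at 0.441 UMIs. Lgals8 stayed at the counting level, with 1.03 in both libraries at means of 0.139 and 0.138 UMIs. A Fano factor can rise with the mean, so Lgals7, Lgals9 and Lgals1 were also set beside genes of the set with a mean within 1.5-fold in the Idoxuridine library. The set holds only genes that averaged 0.25 UMIs or more in DMSO too. Genes as sparse in DMSO as Lgals7 and Lgals9 are therefore missing from their comparison. The median Fano factor of the compared genes was 1.11 for Lgals7, 1.08 for Lgals9 and 1.22 for Lgals1. Of the compared genes 99.4%, 99.4% and 98.8% had a lower value than the galectin. For Lgals3 the median was 1.10 and 99.7% had a lower value. In DMSO 94.4% of genes near the mean of Lgals3 and 96.4% of those near the mean of Lgals1 had a lower value, so these 2 were already among the more variable genes there.

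**Figure D3:**
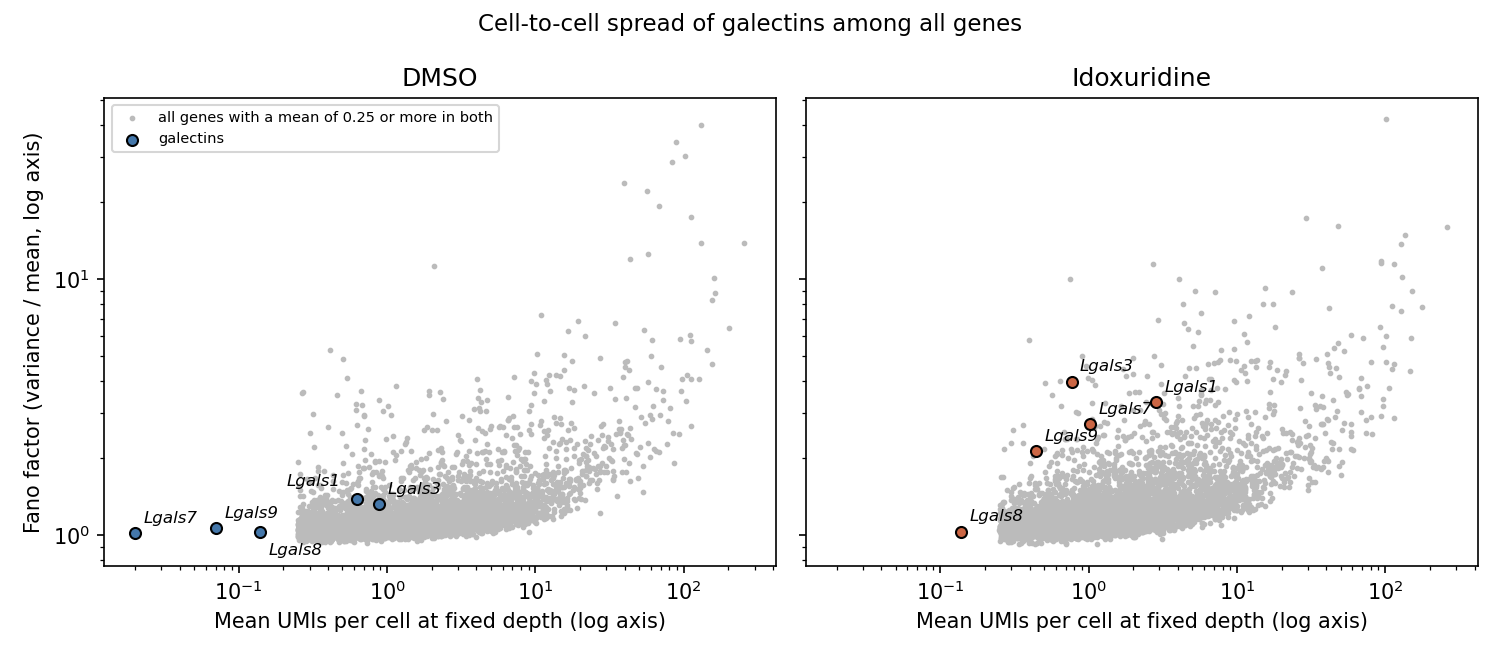
Fano factor against mean UMIs per cell at the fixed depth (both log axes), with 7316 genes in grey and the galectins marked. In DMSO the galectins lie between 1.02 and 1.38, and in Idoxuridine all but Lgals8 lie between 2.12 and 3.97, above most grey genes of similar mean. The grey genes averaged 0.25 UMIs or more in both libraries, which Lgals7 and Lgals9 did not in DMSO.

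For Lgals3 and Lgals9 much of the spread came from a handful of cells. The 5 Idoxuridine cells with the most Lgals3 had 21, 20, 17, 17 and 9 UMIs and held 16.9% of all its UMIs at the fixed depth, while the top 5 DMSO cells had 5 or 6 and held 3.87%. Without the 5 cells with the most Lgals3 UMIs in each library the Fano factors were 1.28 and 1.77, and the log2 ratio of 0.46 was below the call size. For Lgals9 the same step gave 1.05 and 1.48, a log2 ratio of 0.50 (0.497 before rounding), and without the 1 top cell of each library the Idoxuridine value was 1.64. Lgals7 and Lgals1 kept 2.38 and 2.93 in Idoxuridine without their top 5 cells, so their spread was carried by more of the cells.

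The 5 cells highest in Lgals3 still had the stem cell RNAs. Pou5f1 ranged from 39 to 95 UMIs in them, against a library median of 37, and Zfp42, which encodes the naive stem cell marker Rex1, from 13 to 43. Lgals7 had a UMI in 4 of the 5 and Lgals1 in 4. Before thinning these cells had 26630, 27167, 52642, 26195 and 32955 UMIs, most of them below the library median of 37425. Their total for 12 macrophage genes was 0 to 5 UMIs. Simple epithelium genes summed to 23 to 38 UMIs in each, beside a mean of 18.6 in cells without Lgals3, and keratinocyte-list genes to 2 to 18, beside 3.59. Over the whole Idoxuridine library most UMIs of the keratinocyte list were from the single gene Sfn. These cells, and the step without 1 top cell, were singled out after their values were seen.

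Some galectins were seen in the same Idoxuridine cells more often than the product of their 2 shares gives, by a modest margin. The ratio was 1.09 for Lgals1 and Lgals7, 1.08 for Lgals1 and Lgals9, 1.12 for Lgals3 and Lgals7, and 1.17 for Lgals7 and Lgals9, and all 4 stayed above 1 at 15000 UMIs and with a second seed. It was 1.02 for Lgals1 and Lgals3, but 0.985 at 15000 UMIs and 0.993 with the second seed. For Lgals3 and Lgals9 it was 1.13, but 0.996 at 15000 UMIs. Lgals7 and Lgals9 shared 100 cells against 85.2 by the product. Lgals7 had a UMI in 51.1% of the 509 cells with Lgals1 (46.6% to 55.5%) and in 32.4% of those without (24.7% to 40.8%). Its mean was 1.16 UMIs in the former and 0.604 in the latter. Lgals9 had a UMI in 32.8% of cells with Lgals7 (27.5% to 38.4%) and 23.6% of cells without (19.2% to 28.5%), and those intervals overlap.

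Pairs with Lgals8 lay on both sides of the product. Their ratios in Idoxuridine were 0.998 with Lgals1, 1.00 with Lgals7, 1.10 with Lgals3 and 0.871 with Lgals9, the last from 18 cells. In DMSO the commonest pair, Lgals1 and Lgals3, shared 167 cells against 169 by the product, a ratio of 0.988. That ratio was 1.14 at 15000 UMIs and 1.05 with the second seed. Lgals1 and Lgals8 had 0.964 but 1.37 at 15000 UMIs, and Lgals3 and Lgals9 had 0.784 but 1.08 with the second seed. These DMSO pairs thus changed sides of the product with the draw or depth. Pairs with Lgals7 rested on 15 DMSO cells and could not be described.

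Counted per cell, the Idoxuridine library had more cells with 4 or 5 galectins and more with none than independent detection gives. There were 64 cells with 4 or 5 (9.88%, 7.69% to 12.4%) against 41.8 by the product of the shares, and 45 cells with none (6.94%) against 29.1. Of the 64, 6 cells had all 5. The ratio to the product for 4 or 5 galectins was 1.53 here, 1.34 with the second seed and 1.27 at 15000 UMIs. In DMSO 1 cell had 4 galectins against 1.87 by the product for 4 or 5, and 161 had none against 168. The DMSO ratio for 4 or 5 was 0.536, but 1.36 with the second seed and 2.46 at 15000 UMIs. With so few such cells no direction is read from it. Cells with 3 or more made up 4.32% in DMSO (2.99% to 6.01%) and 31.2% in Idoxuridine (27.6% to 34.9%), close to the 5.00% and 30.6% that the product gives, so most of that difference goes with the shares of the single genes.

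**Figure D4:**
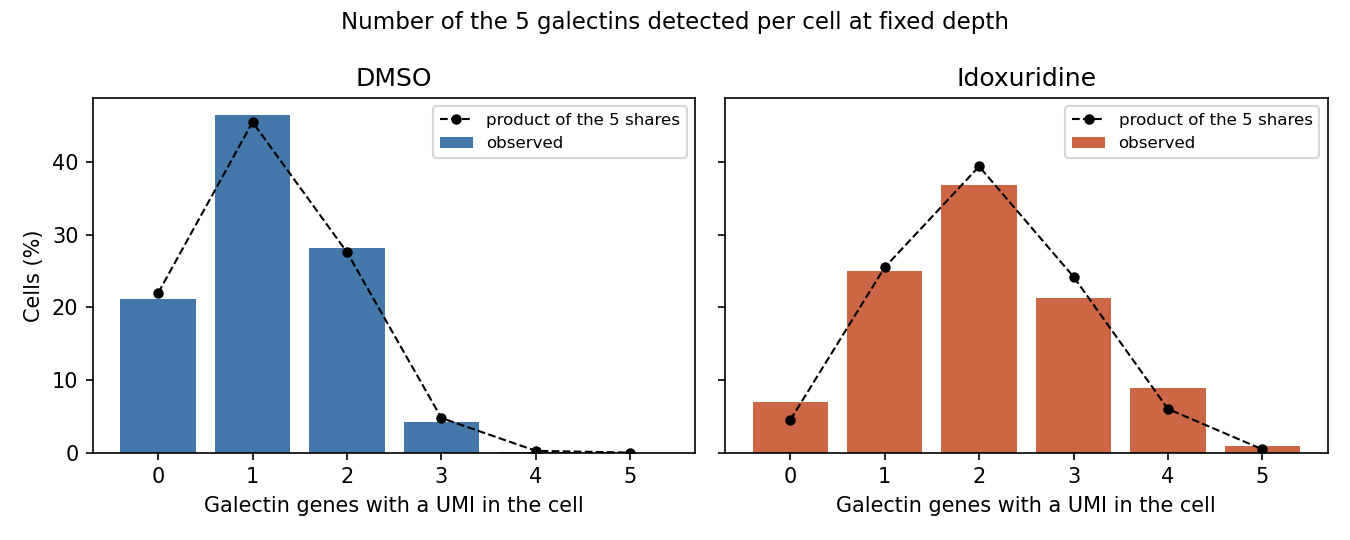
Share of cells (%) by the number of the 5 galectins with a UMI, as bars, beside the share given by multiplying the detection shares (dashed line), in 764 DMSO and 648 Idoxuridine cells. The DMSO bars follow the line, and the Idoxuridine bars exceed it at 0, 4 and 5 galectins.

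Across the 648 Idoxuridine cells, Lgals7 was the gene most like Lgals1 among 10030 genes, with a Pearson r of 0.29 over log counts at the fixed depth. The other genes most like Lgals1 were the imprinted placental growth gene Phlda2 (r = 0.24), Rundc3a (0.21), the mitochondrial ADP/ATP carrier gene Slc25a4 (0.21) and the naive-state gene Dppa3 (0.20). Least like it were Zfp42 (-0.25), the pluripotency factor gene Sox2 (-0.23) and Rtkn (-0.21). For Lgals7 they were Lgals1, Wfdc2 (0.24), Khdc1c (0.23), Arhgdig (0.22) and Phlda2 (0.22), with the threonine dehydrogenase gene Tdh lowest (-0.22). All these cells share 1 library, 1 depth and 1 preparation, and the counts are sparse, so these small r values only rank the genes.

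Genes most like Lgals3 in Idoxuridine were the hemidesmosome integrin gene Itgb4 (r = 0.22), Nccrp1 (0.21), the semaphorin gene Sema3b (0.21), the Fc receptor gene Fcgrt (0.21) and the brain-type creatine kinase gene Ckb (0.21), with Cacybp lowest (-0.20). Itgb4 itself had a log2 level ratio of 1.77. None of these was among the 5 genes most like Lgals1 or Lgals7. For Lgals8 and Lgals9 no gene reached an r of 0.2 in size, and in DMSO none did for any galectin. The range over the galectins in DMSO was -0.18 to 0.17.

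Idoxuridine cells rich and poor in a galectin were then compared by the summed UMIs of fixed gene lists at the same depth. Cells with 4 or more Lgals1 UMIs, 194 cells, had a mean of 87.2 UMIs of general pluripotency genes, against 99.4 in the 260 cells with 0 or 1. Naive pluripotency genes were at 80.5 and 91.3, and the mean of Phlda2 was 2.35 and 0.950 UMIs. Summed G2/M genes were 140 and 128, and whether cell cycle position enters these differences was not tested. The unthinned totals of the cells were close, with medians of 40127 and 38455 UMIs.

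Cells with and without Lgals7, 305 and 343, differed little in general pluripotency genes, at 93.2 and 94.9 UMIs. Keratinocyte-list genes were at 4.67 and 3.46 UMIs, with G2/M genes at 139 and 129. Sfn gave 136 of the 171 CPM of the keratinocyte list in this library, and its part in these differences was not tested. The p53 target list was at 64.1 UMIs in cells with Lgals7 and 69.7 in cells without. The order was the same for the Lgals1 split (64.1 and 69.9), Lgals3 (66.3 and 67.5) and Lgals9 (65.6 and 67.6). For Lgals8 it was the opposite (71.6 and 66.5). The part of p53 in the galectin levels was not tested. Cells with and without Lgals3, 247 and 401, had naive pluripotency genes at 90.8 and 83.2 UMIs, the opposite direction from Lgals1. They had keratinocyte-list genes at 4.73 and 3.59, and nuclear-retained RNAs, which can mark lost cytoplasm, at 136 and 124. In the 12 cells with 5 or more Lgals3 UMIs, a limit set after the values were seen, the nuclear-retained RNAs were at 209 and simple epithelium genes at 29.8. The part of RNA quality in this was not tested. Cells with and without Lgals9, 181 and 467, had simple epithelium genes at 20.9 and 18.0 UMIs and nuclear-retained RNAs at 138 and 125. By mean, the nuclear-retained RNAs differed most with Lgals8 of the 5 galectins, at 151 UMIs in the 74 cells with it and 126 in the 574 without. By median they were at 117 and 113 for Lgals8, closer than for Lgals9 (126 and 107) or Lgals3 (123 and 107). That order thus holds for means only. With and without Lgals8, general pluripotency genes were at 89.6 and 94.6 and simple epithelium genes at 21.5 and 18.4.

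The neuroectoderm list, of early neural genes, was at 6.39 and 4.70 UMIs in cells with 4 or more and with 0 or 1 Lgals1 UMIs, at 6.10 and 4.60 in cells with and without Lgals3, and at 5.80 and 4.61 for Lgals7. For Lgals8 it was at 5.49 and 5.13, and for Lgals9 the order was the opposite, at 4.81 and 5.31. Among the 5 cells highest in Lgals3 it ranged from 5 to 46, so single cells weigh on the Lgals3 value. Macrophage genes were at 0.704 and 0.434 UMIs in cells with and without Lgals3.

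In DMSO, where Lgals1 was split at 1 or more UMIs against 0, the pluripotency lists lay close together for Lgals1 and Lgals3. Cells with and without Lgals1 had general pluripotency genes at 127 and 128 UMIs, and cells with and without Lgals3 at 129 and 126. Naive pluripotency genes were at 124 and 123 for Lgals3. The lists lay further apart for the sparser Lgals7 and Lgals9. General pluripotency genes were at 117 in the 15 cells with Lgals7 and 128 without, and at 122 in the 39 cells with Lgals9 and 128 without. Naive pluripotency genes were at 111 and 124 for Lgals7 and at 118 and 124 for Lgals9. G2/M genes were lower in cells with Lgals3 in both libraries, at 123 and 132 in DMSO and 129.6 and 136 in Idoxuridine. For Lgals1 they were at 124 with and 130 without in DMSO, the opposite order from its Idoxuridine split.

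**Figure D5:**
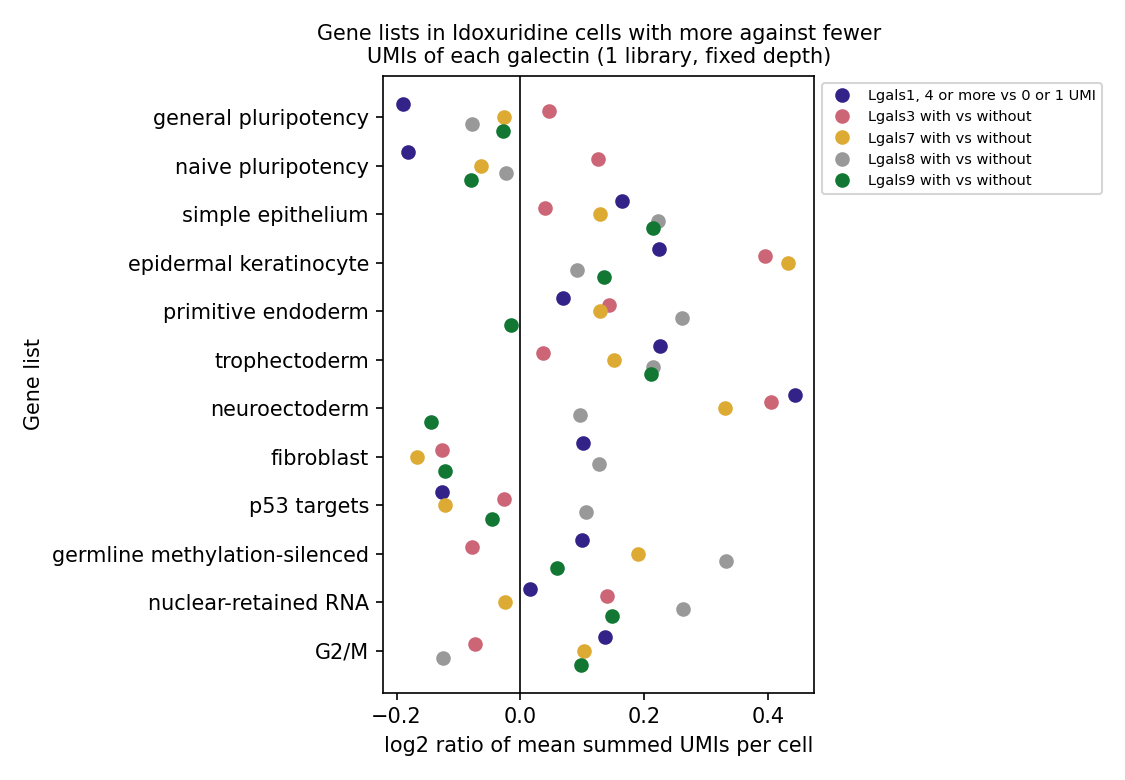
log2 ratio of the mean summed UMIs of 12 gene lists between Idoxuridine cells with more and with fewer UMIs of each galectin, at the fixed depth and in 1 library, with no error shown. The Lgals1 points lie below 0 for both pluripotency lists and the Lgals3 points above it, and for keratinocyte-list genes Lgals3 and Lgals7 lie farther right than the other galectins. Most UMIs of the keratinocyte list in this library are from Sfn.

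Of 20 genes within 100 kb of a galectin that had at least 50 UMIs, 4 (20%) were called higher and 0 lower. Over all 12629 genes with at least 50 UMIs the shares were 24.5% higher and 3.72% lower, so the neighbours lay near the background. Within 100 kb of Lgals7, 7 genes had at least 50 UMIs, and the only one called was Lgals4, itself a galectin gene of the gut epithelium, with 1.25 CPM in the DMSO library (0.930 to 1.64) and 3.71 CPM in the other (3.06 to 4.46). Actn4, which encodes an actinin, was at a log2 ratio of 0.41, and the enoyl-CoA hydratase gene Ech1 was at -0.33. Of 5 such genes around Lgals1 the linker histone gene H1f0 was called higher, with a log2 ratio of 1.49, and Nol12, 4468 bases away, was at -0.39. None of 5 around Lgals3 was called. Around Lgals8 1 of 2 was called, Actn2 at 3.21 from 9 and 62 UMIs, and around Lgals9 the 1 measured, Ksr1, at 0.84.

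Among the rest of the family, Lgals4 was the only gene called. Lgalsl, which encodes a galectin-related protein, had 14.1 CPM with DMSO (13.0 to 15.3) and 11.7 CPM with Idoxuridine (10.5 to 12.9), and its log2 ratio was -0.28. Lgals12 had 4 and 24 UMIs, and Lgals2 and Grifin had at most 2 in either library. Lgals6 was not found in the gene table by symbol. The 5 galectins together summed to 74.6 CPM in DMSO and 221 CPM in Idoxuridine.

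Genes that make and carry galectin ligands were listed to see whether the binding partners differed as well. Of 17 genes for branching and galactose capping of N-glycans, all with at least 50 UMIs, 3 were higher and 1 lower. The shares over all genes of that depth were 24.5% and 3.72%, and 18.8% were higher among genes with at least 200 UMIs. With so few genes in the list no difference from that background is read. The higher ones were Mgat4c, a member of the branching enzyme family, at 0.269 and 19.0 CPM, the galactosyltransferase gene B4galt2 (log2 ratio 1.27) and the mannosidase gene Man2a1 (0.77). Mgat4b was lower (-0.56), and Mgat5, whose branches galectin-3 binds best, was at 0.14. Mgat3 at 0.93 and B3gnt2 at 0.80 had overlapping intervals. The list median was 0.36, beside 0.15 over all genes.

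Of 19 galectin-binding glycoprotein genes 16 had at least 50 UMIs, and 7 were higher and 0 lower, beside 24.5% and 3.72% of all genes. The 4 with the largest ratios had at most 18.2 CPM in either library: the hyaluronan receptor gene Cd44 at 0.514 and 3.61 CPM, Egfr (log2 ratio 2.06), the mucin gene Muc1 (1.81) and the laminin gene Lamb1 (1.64). The abundant carriers differed little, with the lysosomal membrane gene Lamp1 at 0.20, Bsg at -0.06, the integrin gene Itgb1 at 0.09 and Fn1 at -0.30. The list median was 0.14, beside 0.15 over all genes, and -0.07 with TMM scaling. Lgals3bp, which encodes the secreted galectin-3-binding protein, had 2 and 18 UMIs.

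Of 14 genes that act with galectins on damaged lysosomes 13 were measured, and 2 were higher and 0 lower. Their median was 0.21 (-0.00306 with TMM scaling). All 13 had at least 200 UMIs, and 18.8% of all genes of that depth were higher, beside 24.5% of those with at least 50. With so few genes no difference from the background is read. Calcoco2, which encodes the autophagy receptor NDP52 that binds galectin-8, was at 29.0 CPM and 110 CPM, and Tfeb, the main transcription factor of lysosome genes, had a log2 ratio of 0.78. The receptor gene Sqstm1 (0.46) and Pdcd6ip (0.43) did not reach the call size. Trim16, a partner of galectin-3, had 3 and 12 UMIs.

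Gene lists of tissues and pathways that express galectins were set beside the same background of 24.5% higher and 3.72% lower. Of 17 epidermal keratinocyte genes 6 were measured and 3 were higher, S100a14 (5.02), Krtdap (4.67) and the desmosome gene Dsp (2.36), while Krt17 was at -0.65 with overlapping intervals. The list summed to 107 CPM in DMSO and 171 CPM in Idoxuridine. Most of that was Sfn, at 98.7 and 136 CPM, which was not called (0.47). Of 11 simple epithelium genes 7 were higher and 0 lower, with Krt19 (4.10), Cldn6 (3.03), Cdh3 (2.74) and Epcam (1.71) highest, and they summed to 457 and 791 CPM. Of 27 p53 target genes 13 were higher and 0 lower, with a median of 0.48, and Rprm (3.50), Fas (2.36), Perp (1.90) and Pmaip1 (1.49) had the largest ratios. Of 12 macrophage genes only Spi1 (1.29) and Cd68 (0.53) were measured, and both were higher, with the list at 12.2 and 23.7 CPM. Other lists differed as much or more: 9 of 11 measured primitive endoderm genes were higher (median 2.12) and 12 of 14 measured germline genes (2.17). So were 4 of 4 measured neuroectoderm genes (1.88) and 5 of 7 measured trophectoderm genes (1.49), with 0 lower in each of these lists. The neuroectoderm list has 10 genes, and most were not measured. Among those left out, Sox1 had 35 UMIs in DMSO and 14 in Idoxuridine. The part of other cell types in the galectin levels was not tested.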

How the data were processed

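The values are the UMI counts, whole numbers for each gene in each cell, that the authors deposited for 2 libraries, 1 per treatment, made with 10x Genomics 3′ chemistry per the labels' protocols. Per the submitters' processing notes the tools included Cell Ranger 2 and Seurat and the genome was mm10; their roles are not given in the sources used here. How barcodes were called as cells is not given in the sources used here, so all 811 and 742 were kept and no doublet caller was run. Gene and barcode identifiers are used as deposited.

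UMIs were summed over cells and scaled to CPM, with exact Poisson intervals for levels, exact conditional binomial intervals for ratios and Clopper-Pearson intervals for shares (scipy 1.17.1). They cover counting error only. Shares, co-detection and r (log of 1 + UMIs, genes with a mean of at least 0.1) used 1 seeded thinning of each cell to 23500 UMIs, which left out 47 DMSO and 94 Idoxuridine cells. Fano factors used the exact expectation of thinning. TMM factors came from edgeR 4.0.16, used for scaling only. Coordinates are from GENCODE M21, where 98.7% of gene identifiers were found. The level, interval and Fano scripts were tested on simulated data. The members and the 18 gene lists were chosen with earlier results of these data known. Named genes were all galectins, up to 4 genes per list by size of ratio, the genes with the highest 5 and lowest 3 r of at least 0.2 in size, and genes within 100 kb; others named beside them were chosen after their values were seen. No test between treatments was possible.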

Additional observations from a re-analysis of the deposited data

How the results depend on the processing

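Lgals1, Lgals7 and Lgals9 stayed past 0.5 log2 in level under all 5 alternatives (TMM, median-of-ratios, without the 5% of cells with the most UMIs, without cells under the fixed depth, and mean of per-cell CPM), and Lgals8 stayed short of it. Lgals3 reached -0.54 with median-of-ratios scaling. The log2 Fano ratio fell to 0.46 for Lgals3 and 0.497 for Lgals9 without the 5 cells with the most UMIs of the gene. At a depth of 15000 UMIs the difference between the libraries in cells with a UMI, in percentage points, was -9.73 for Lgals3, 33.0 for Lgals7, 16.1 for Lgals9 and 0.852 for Lgals8, which turned sign, and cells with 3 or more galectins were 2.22% in DMSO and 19.3% in Idoxuridine. With raw UMIs the difference was 23.8 for Lgals1, -20.2 for Lgals3 and 51.6 for Lgals7. For cells with at least 2 UMIs it was 44.4 for Lgals1, -6.80 for Lgals3, 23.3 for Lgals7 and 7.04 for Lgals9. The r of Lgals1 and Lgals7 was 0.25 with a second seed and 0.21 at 15000 UMIs.

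Over all genes, 1947 were called higher and 436 lower. These were 3099 higher with at least 50 UMIs, 4189 higher with no filter, 1259 and 1262 with TMM, 1146 and 1551 with median-of-ratios scaling, and 742 and 51 at 1 log2. The share of calls that were higher was 81.7%, and 49.9% with TMM. The 186 genes with a Fano factor 0.5 log2 higher were 100 at 15000 UMIs, and the 10 lower were 168 with raw UMIs. List medians that turned sign were galectin-binding glycoproteins (-0.066), damaged-lysosome response (-0.00306) and G2/M (-0.15) with TMM, and fibroblast (-0.46) with at least 200 UMIs. Other than as the settings differ in cells, genes or scaling, the cause was not tested. No paired analysis was possible because each treatment had 1 library. Depth limits what can be said of Lgals8, whose 233 and 174 UMIs allow log2 ratios from -0.29 to 0.29.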
